A study of Mus musculus with 16 samples.

Results

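Among the 12658 circRNA entries measured in plasma small extracellular vesicles (pEVs) of PS19 and WT mice, 100 formed the most abundant set that did not simply copy a tRNA or a miRNA in its level from library to library. An entry was set aside when its 16 deposited values had a Pearson r of 0.99 or more with any tRNA or miRNA of mean 10 or more, which removed 492 entries against 581 tRNA and miRNA rows, and 7 further IDs were left out by name, 4 of which were among the 492. Of entries with identical values in every library only the first by name was kept, which left 10087 distinct profiles, and the 100 with the highest mean over the 16 libraries were taken. The members were thus chosen by their mean level and by their r with tRNAs and miRNAs, which are given as descriptions. The table holds 15159 ncRNAs in all.

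The samples were pEVs from 200 µL plasma of 9.6-month-old mice, 8 of genotype PS19+/- and 8 WT, 1 small RNA library for each mouse, with males and females in both groups. The PS19 transgene encodes a human tau protein with a mutation found in inherited dementia, and prion gene sequences drive it in the nervous system but not in neurons alone. WT mice lack it, and the labels list no treatment. The question of the comparison is whether ncRNAs in plasma vesicles differ between mice with and without tau pathology. The submitters' library names start with G for all 8 PS19 libraries but for only 2 of 8 WT libraries, so this naming and the genotype can be separated only within those 10 libraries. What the letters stand for is not given in the sources used here. In bulk pEV RNA, fewer vesicles of a kind and less RNA per vesicle cannot be told apart.

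circRNAs arise when a downstream splice donor joins an upstream acceptor, and the closed loop that results has no free end for an exonuclease. Many overlap exons of protein-coding genes, are frequent in neurons and are studied in vesicles because of their stability. A circle is identified by the read that crosses its back-splice junction, while a read from within its span can equally come from the linear transcript or from a small RNA gene that lies in the same span.

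Each library held 36220722 to 117583663 reads counted over all ncRNAs, of which 90.8 to 99.9% were tRNA reads. Circular entries took 0.0447 to 1.26% of the reads. The 100 entries took 43.1% of all circRNA reads when the libraries were pooled, and between 19.1% in PS19 replicate 3 and 69.5% in PS19 replicate 1. Levels are normalized counts, meaning reads divided by the size factor of the library, and the smallest of these factors was 0.261 (PS19 replicate 4) and the largest 2.57 (WT replicate 5). PS19 replicate 4 held the lowest value of 48 of the 100 entries and PS19 replicate 7 the highest value of 34. Tissue marker miRNAs were found in both genotypes, given here as the median summed level in normalized counts. It was 35670 in PS19 and 44021 in WT for 6 red blood cell miRNAs. For 5 platelet and myeloid miRNAs it was 1518 and 2016, and for 3 liver miRNAs 27570 and 105776. For the 5 miRNAs of the list for neurons, which includes miR-219a-5p, it was 2708 and 3446. The ranges of the 2 genotypes overlapped for each of the 4 lists, and miR-219a-5p was at 0 in all WT libraries. The part of these sources in the circRNA levels was not tested.

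All 100 entries had reads, from 2076 to 138330 over the 16 libraries with a median of 6757.5. There were 97 with at least 1 read in every library and 87 with more than 3 reads in every library. Their mean levels ran from 12704 down to 184 normalized counts with a median of 415, and 18 exceeded 1000. The last entries inside the limit were circ_0009132 at 185 and circ_0009133 at 184 normalized counts, and the first outside were circ_0003841 at 183 and circ_0011010 at 180. The limit thus fell in a run of near-equal means.

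The highest mean, 12704 ± 50812 normalized counts (SD, n = 16), belonged to circ_0002885 and came from 1 library. In PS19 replicate 1 it reached 203251 normalized counts, or 138313 reads, and in the other 15 libraries it lay between 0 and 4.11. It made up 78.9% of all reads of the 100 entries in that library. The nearest abundant row of another class was miR-5119, at an r of 0.829 and a Spearman rho of 0.674 over 16 libraries. Without this entry the remaining 99 held 40.8% of the pooled circRNA reads and 32.4% of those in PS19 replicate 1.

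The next entries were present throughout. circ_0004465 had 778 to 11260 normalized counts in PS19 with a median of 5535, and 2692 to 10780 in WT with a median of 5048. The lowest value was in PS19 replicate 4 and the highest in PS19 replicate 7, with WT replicate 2 close below it. circ_0004214 and circ_0004213, which carry adjacent accession numbers, averaged 4368 and 4367 normalized counts and differed by at most 8 reads in any library, with 94191 and 94170 reads in all. circ_0006750 averaged 3711 ± 3441 (SD, n = 16) and spanned 175 to 11324 in PS19 and 341 to 7459 in WT. circ_0006159 averaged 2369, circ_0009825 1460, circ_0003655 1459 and circ_0003656 1442 normalized counts. Apart from circ_0002885, the 10 most abundant entries were found in all libraries at more than 3 reads.

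**Figure D1:**
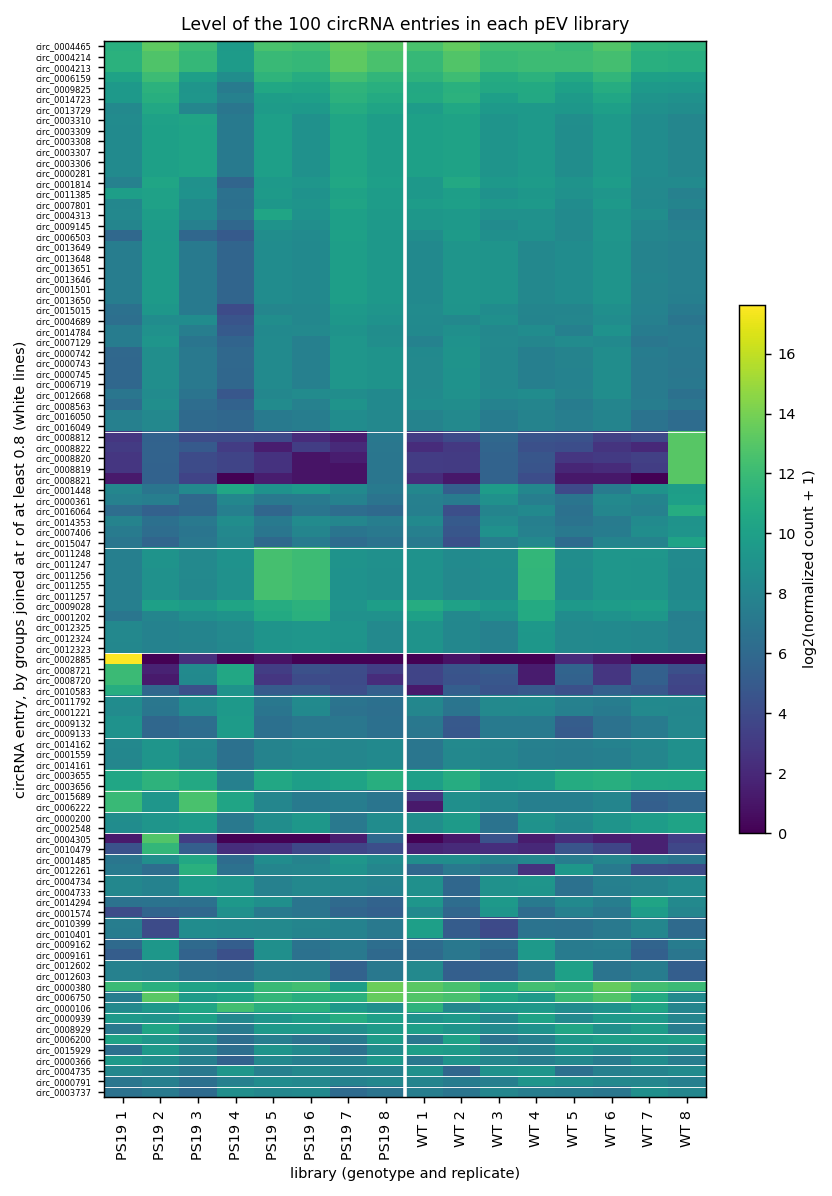
Level of each of the 100 circRNA entries (rows, ordered by groups whose members were joined at an r of at least 0.8, with white lines between groups) in each of the 8 PS19 and 8 WT libraries (columns), as log2(normalized count + 1). The upper block of 37 entries is dark in PS19 replicate 4 and bright in PS19 replicate 7, and a few entries are bright in 1 library, such as circ_0002885 in PS19 replicate 1 and the circ_0008812 family in WT replicate 8.

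Although no entry had a tRNA or miRNA twin of mean 10 or more, 10 of the 100 followed a small nuclear or nucleolar RNA gene of mean 10 or more at an r of 0.99 or more, so that the set is not free of small RNA twins in the wider sense. With genes of any mean there were 9 further entries. For circ_0002885, circ_0004305, circ_0010479 and the 5 entries of the circ_0008812 family the gene was one with at most 14 reads, all in a single library, and for circ_0001574 it was Gm23254, with 96 reads in all and an r of 0.993. Similarly, 9 entries had a tRNA or miRNA of mean under 10 at 0.99 or more. Small nuclear RNAs build the spliceosome and small nucleolar RNAs guide the processing and modification of other RNAs, most of them ribosomal. The following 3 genes are shown because the level of each and that of a circRNA entry moved together in every library. Their sequences and positions are those of GENCODE vM21 on mouse build GRCm38, the equivalent of the mm10 build named in the submitters' processing notes.

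Gm24305, a 164-base snRNA on chr12:54734555-54734718 (minus strand) outside any other gene, moved with circ_0000380. The capitals mark ACTTACCTG, the stretch near the 5′ end by which U1 snRNA pairs with 5′ splice sites.
Gm24305: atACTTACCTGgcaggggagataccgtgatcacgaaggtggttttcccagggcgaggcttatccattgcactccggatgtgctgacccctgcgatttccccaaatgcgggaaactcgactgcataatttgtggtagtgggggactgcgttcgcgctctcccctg

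Gm23212, a 60-base snoRNA on chr1:161036682-161036741 (plus strand), lies within Gas5, a non-coding host gene of several snoRNAs, and overlaps exons of some Gas5 transcripts. It moved with circ_0000106. The capitals mark the first TGATGA and the last CTGA, letters of the C and D boxes that define one class of snoRNA.
Gm23212: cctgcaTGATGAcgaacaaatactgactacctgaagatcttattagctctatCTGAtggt

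Gm25939, a 191-base snRNA on chr1:72255008-72255198 (plus strand) in an intron of the lincRNA gene D230017M19Rik, moved with circ_0008929. The capitals mark GTAGTA, the letters with which U2 snRNA recognizes the intron's branch point.
Gm25939: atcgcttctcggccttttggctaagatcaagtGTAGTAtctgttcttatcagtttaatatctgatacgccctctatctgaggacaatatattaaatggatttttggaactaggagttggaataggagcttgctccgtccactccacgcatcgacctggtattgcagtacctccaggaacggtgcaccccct

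Searched on the strand of the RNA, ACTTACCTG occurs in 3.98% and GTAGTA in 3.69% of the 1383 snRNA transcripts of GENCODE vM21, while TGATGA occurs in 26.1% and CTGA in 79.5% of the 1507 snoRNA transcripts. The marked letters do not overlap. None of the 100 circRNA IDs matched a GENCODE gene name, and no position, sequence or host gene of the circles themselves was used here, so whether a gene shown lies within the span of the matching circle was not tested.

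circ_0000380, the third most abundant entry, had 917 to 12843 normalized counts in PS19 with a median of 3106 and 2174 to 11499 in WT with a median of 5111. PS19 replicate 8 and WT replicate 6 were the highest libraries and PS19 replicates 4 and 7 the lowest. Its r with Gm24305 was 0.9999 and its rho 1, and its level was 3.02 to 3.14 times that of Gm24305 in every library. Of the snRNA and snoRNA genes, 11 reached an r of 0.99 with it, among them the U1 gene Rnu1a1, and the level of the entry was 2.89 to 3.04 times that of Rnu1a1. Its best r with a tRNA or miRNA was 0.634, with miR-22-3p.

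circ_0000106 averaged 1235 ± 1273 normalized counts (SD, n = 16), and 99.8% of its reads were matched in number by Gm23212, with 0 to 13 reads between the entry and the gene in a library. PS19 replicate 4, the library lowest in 48 entries, was here the highest at 5024 normalized counts, and WT replicate 8 was the lowest at 264. The 5 entries circ_0011248, circ_0011247, circ_0011256, circ_0011255 and circ_0011257 averaged 1147 to 1169 normalized counts and moved with Snord85, a snoRNA gene that averaged 1145 ± 1620 (SD, n = 16). circ_0011248 stood at 5463 in PS19 replicate 5, 4274 in PS19 replicate 6 and 3199 in WT replicate 4, and between 197 and 622 normalized counts in the other 13 libraries. The high libraries came from both genotypes.

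circ_0008929 averaged 604 normalized counts and Gm25939 averaged 635, so that the gene held 104% of the reads of the entry. 4 snRNA genes reached an r of 0.99 with it, and the U2 gene Rnu2-10 reached 0.959. circ_0012602 and circ_0012603 averaged 188 normalized counts each and moved with Gm22865, a 214-base snoRNA on chr2:121004089-121004302 (plus strand) in an intron of Tmem62, at an r above 0.99. Rnu3a, which encodes the U3 RNA needed for early cleavage of ribosomal precursors, came just under that r with both. Their highest library was WT replicate 5, at 1047 normalized counts for circ_0012602, against 38.4 to 308 in the other WT libraries and 46.0 to 213 in PS19.

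**Figure D2:**
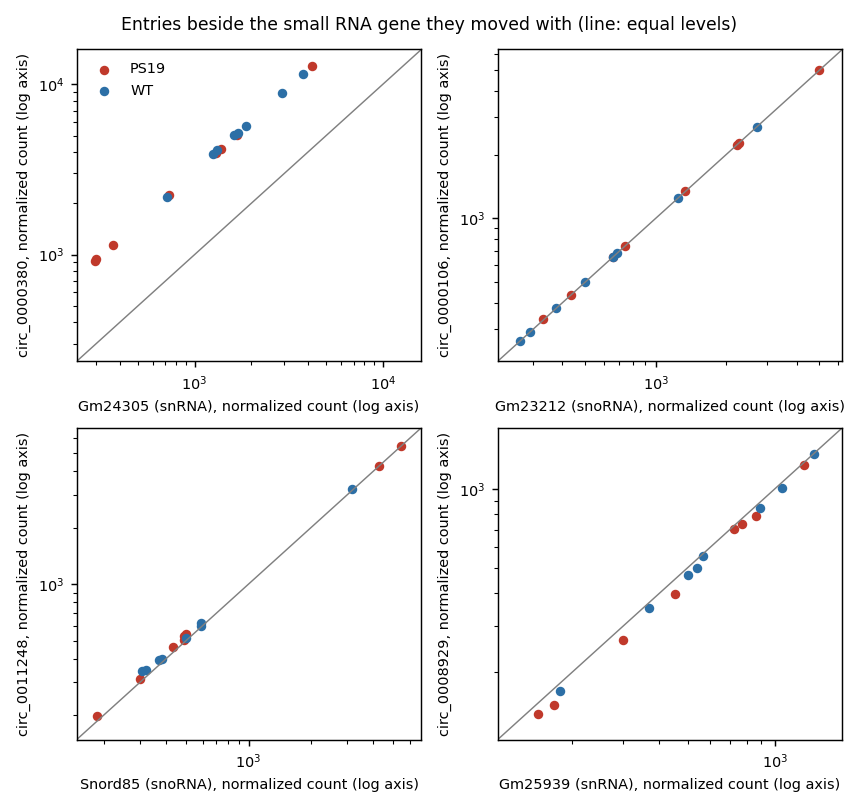
Normalized counts of 4 circRNA entries (vertical, log axis) against those of the snRNA or snoRNA gene with the highest r (horizontal, log axis), 1 point a library, with a line of equal levels. circ_0000106 and circ_0011248 lie on or just above the line, circ_0008929 just below it, and circ_0000380 runs parallel to it at about 3.06 times the gene's level.

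Only tRNA and miRNA rows of mean 10 or more are used in this paragraph. The best r of the 100 entries with such a row had a median of 0.817 and ran from 0.410 to 0.989. A miRNA was the best match of 74 entries and a tRNA that of 26. There were 17 entries at 0.9 or more, 10 at 0.95 or more and 3 at 0.98 or more, and 44 were under 0.8. Nearest to the limit was circ_0015929 with miR-148a-3p, a miRNA abundant in liver, at an r of 0.989 and a rho of 0.976. The entry held 8536 reads against 3265443 for the miRNA, 0.00188 to 0.00306 of its level in each library. circ_0003737 followed with miR-382-5p at 0.988, at 1.11 to 2.04 times the level of the miRNA, and circ_0001448 with tRNA-Ala-TGC-1-1 at 0.983, at 0.479 to 0.849 times its level. The other end was formed by circ_0006200 at 0.410 and by circ_0002548 and circ_0000200 at 0.465 and 0.466.

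The mature miRNAs that these entries and the largest group below followed most closely are given with the seed, bases 2 to 8, in capitals. They are from RefSeq on GRCm38.p6, all 4 names matched, and no 2 of them share a seed.
miR-148a-3p: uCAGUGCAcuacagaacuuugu
miR-382-5p: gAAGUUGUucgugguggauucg
let-7d-3p: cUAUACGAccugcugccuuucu
miR-150-3p: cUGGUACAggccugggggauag

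The spread of an entry over the 16 libraries, as the coefficient of variation (CV, SD over mean), had a median of 0.596 and ran from 0.412 to 4.0. Steadiest with the deposited scaling were circ_0012325, circ_0012324 and circ_0012323, with CVs of 0.412 to 0.417. The order depends on the scaling, and with library totals the lowest CV of any entry was 0.311. circ_0012325 lay between 224 and 606 normalized counts in PS19 and between 208 and 661 in WT. At the other end, 11 entries took more than 50% of their summed level from 1 library, while 66 took less than 20% from their highest library. The 11 were circ_0002885, circ_0008721, circ_0008720 and circ_0010583 in PS19 replicate 1, circ_0004305 and circ_0010479 in PS19 replicate 2, and circ_0008812, circ_0008819, circ_0008820, circ_0008821 and circ_0008822 in WT replicate 8.

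Of these 11 entries, 5 formed a single family, that of WT replicate 8. circ_0008812 had 8353 normalized counts, or 5877 reads, in that library, 130 in PS19 replicate 8 and 1.67 to 60.5 in the other 14. circ_0008821, with a CV of 3.87, had 8343 there and 0 to 123 elsewhere. In PS19 replicate 2 circ_0004305 had 7466 normalized counts, or 10435 reads, against at most 64.7 in any other library, and circ_0010479 had 3203 against at most 39.8. circ_0008721 had 4248 in PS19 replicate 1, 1488 in PS19 replicate 4, 339 in PS19 replicate 3 and 1.54 to 49.4 in the rest.

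**Figure D3:**
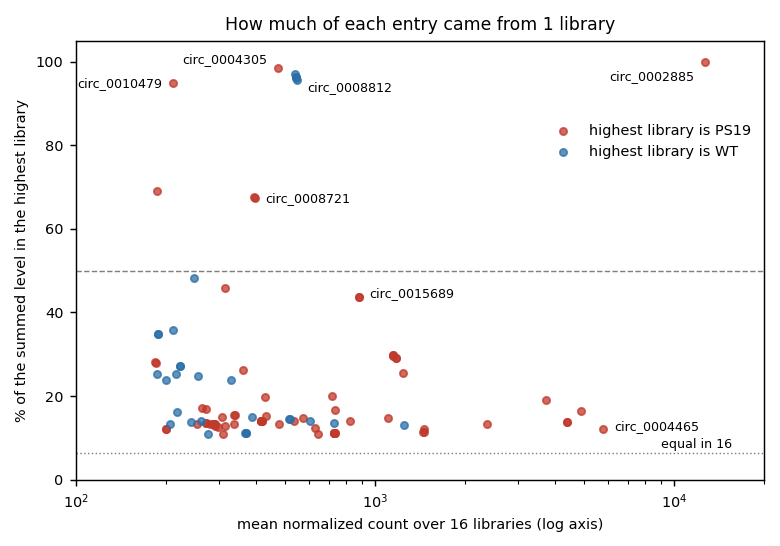
Mean normalized count over 16 libraries (horizontal, log axis) and the percent of an entry's summed level found in its highest library (vertical) for the 100 circRNA entries, coloured by the genotype of that library, with a dashed line at 50% and a dotted line at an equal share in 16 libraries. Most points lie under 20%, and 11 lie above 50%, with circ_0002885 at nearly 100% at the far right.

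Other ncRNAs whose mean was at least that of the lowest entry spread as follows. The median CV was 0.586 for 99 miRNAs, 0.958 for 72 distinct tRNA profiles, 0.726 for 60 distinct snRNA and snoRNA profiles and 3.44 for 20 distinct circRNA profiles that had a tRNA or miRNA twin. More than 50% in 1 library was found for 2 of the 99 miRNAs, 15 of the 72 tRNA profiles, 1 of the 60 small RNA gene profiles and 12 of the 20 circRNA profiles with a twin, beside the 11 of 100. These differences are a description, since the rule that set the twins aside used the same values. The median CV of the 100 entries depended on the scaling and was 1.29 when reads were scaled to library totals and 0.709 with size factors from miRNAs alone.

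Many of the 100 entries were near copies of each other. Joined at an r of 0.99 or more they formed 60 distinct patterns, 39 of single entries and 21 of 2 to 6 entries. At 0.9 there were 37 patterns and at 0.8 there were 27. 42 entries had a member with an adjacent accession number. The largest families at 0.99 had 6 entries each, led by circ_0003310 (729 to 735 normalized counts on average) and by circ_0013649 (414 to 417), and the median r within them was 0.9999 or more. In the circ_0003310 family the entries with the most and the fewest reads in a library differed by 0 to 23 reads. In the circ_0013649 family they differed by 0 to 30. Some groups joined at 0.99 were not near copies in reads. circ_0004305 and circ_0010479 differed by 5958 reads in PS19 replicate 2. The group led by circ_0008721 differed by 1487 in PS19 replicate 1, and that led by circ_0016064 by 491 in WT replicate 8. Beyond the 100, 393 other circRNA entries reached an r of 0.99 with a member. For single members the number was 149 with circ_0002885, 99 with circ_0008812, 89 with circ_0004305 and 38 with circ_0010583. Each of these members took more than 50% of its level from 1 library. An r of 0.99 with it can rest on that library alone and does not show a near copy.

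A pair of neighbours was split by 2 libraries. circ_0004733 and circ_0004735 differed by at most 13 reads in 14 libraries. In PS19 replicate 3 the first had 607 reads and the second 97, and in PS19 replicate 7 they had 337 and 271, which left an r of 0.566 between them. circ_0004734 followed circ_0004733 in all libraries, within 13 reads.

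The widest pattern was shared by 37 entries joined at 0.8 and led by circ_0004465, with circ_0004214, circ_0004213, circ_0006159, circ_0009825 and the families of circ_0003310, circ_0013649 and circ_0000742 among them. They held 51.2% of the reads of the 100 entries when circ_0002885 was left out, and the median r over their pairs was 0.862. Their summed level ran from 5515 normalized counts in PS19 replicate 4 to 69953 in PS19 replicate 7 with a median of 31891 in PS19, and from 15051 in WT replicate 8 to 57964 in WT replicate 2 with a median of 32245 in WT. The WT range lay within the PS19 range, which reached beyond it at both ends. PS19 replicate 7 was the highest library for 33 of the 37 entries and PS19 replicate 4 the lowest for 34.

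Among tRNAs and miRNAs of mean 10 or more, let-7d-3p was the best match of 17 and miR-150-3p of 10 of these 37 entries. The best r values of the 37 were 0.627 to 0.862. Over the 16 libraries the summed level of the 37 had an r of -0.72 and a rho of -0.74 with the summed tRNA level, which shares library and size factor with it. No entry of this group passed the test between genotypes: log2 fold changes lay between -0.82 and 0.27 with a median of -0.18, and the smallest raw p of the limma test was 0.212.

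For PS19 compared to WT, limma on log2(normalized count + 1) over all 15159 ncRNAs gave a raw p under 0.05, the level the study used for its calls, for 8 of the 100 entries, 5 higher and 3 lower in PS19. The share called among all ncRNAs was 4.85%, with 2.72% higher and 2.13% lower in PS19. It was 12.9% among the 404 ncRNAs with at least the mean of the lowest entry, the 100 included. Among the 27 other circRNA entries of that abundance it was 59.3%. Of these, 23 were set aside by the rule for their tRNA or miRNA twin, so they are no plain background for the 100. No entry passed a Benjamini-Hochberg adjusted p of 0.05 in limma over all ncRNAs, the smallest being 0.829, against 8 at a raw p under 0.05, and 0.0% of all ncRNAs passed. In a test of the recovered reads 5 entries passed the adjusted threshold with DESeq2 and 14 with edgeR's quasi-likelihood test, and 10 and 19 had a raw p under 0.05, beside 5.42% and 15.1% of all ncRNAs (7.88% higher and 7.26% lower in PS19 with edgeR). Among all ncRNAs with an adjusted p, 2.47% passed with DESeq2 and 2.1% with edgeR. The 11 entries with more than 50% of their level in 1 library were all among the 14, and the other 3 were circ_0015689, circ_0006222 and circ_0016064. Those 3, circ_0008720 and circ_0008721 were the 5 of DESeq2. The count of 8 in limma was 5 without PS19 replicate 1 or 3 or WT replicate 1, 3 or 7. The share over all ncRNAs is not given for these fits, so nothing is read from that change. With reads scaled to library totals 2 entries were called higher and 3 lower, beside 2.9% of all ncRNAs (0.95% higher and 1.95% lower in PS19). With size factors from miRNAs alone 6 were called higher and 0 lower, beside 4.95% of all ncRNAs (3.84% higher and 1.11% lower). These scalings moved the median over all ncRNAs from -0.01 to -0.11 and 0.12 on the log2 scale.

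**Figure D4:**
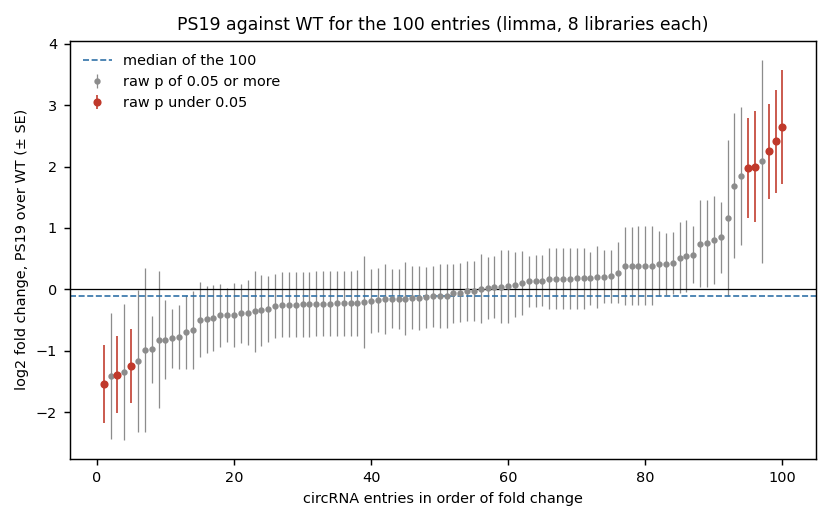
Fitted log2 fold change of PS19 over WT with its standard error (vertical) for the 100 circRNA entries in order of that value (horizontal), from limma with 8 libraries in each group. The 8 entries with a raw p under 0.05 (red) lie towards the ends, with entries that were not called among them, such as circ_0002885 at 2.09 and circ_0008812 at -1.41, the remaining 92 are grey, and the dashed line is the median of the 100 at -0.11.

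The median log2 fold change of the 100 entries was -0.11, beside -0.01 for all ncRNAs and 0.02 for all circRNAs. Positive values were fitted for 45 entries and negative values for 55, and 70 lay within 0.5 of no change, with a range of -1.54 to 2.64. The median was -0.38 with library totals and 0.26 with size factors from miRNAs alone, so that its sign depended on the scaling. The groups overlapped for all 100 entries, as they did for all ncRNAs tested. An exact two-sided permutation test of single entries gave p under 0.05 for 5 of the 100, each of them among the 8, beside 3.96% of all ncRNAs. Summed over the 100 entries, PS19 libraries held 101094 ± 66635 normalized counts (SD, n = 8), and WT libraries held 69184 ± 15568 (SD, n = 8). Without circ_0002885 these sums were 75687 ± 22724 and 69183 ± 15568, a difference smaller than the spread between libraries. The order depended on the scaling. With circ_0002885 included, the sums were 105635 ± 58420 in PS19 and 118894 ± 150513 in WT when reads were scaled to library totals. With size factors from miRNAs alone they were 135870 ± 190461 and 54511 ± 20833 (SD, n = 8).

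The limit of 100 was set by the mean over both genotypes, and 79 entries had at least the lowest mean of the set, 184 normalized counts, in each genotype. Another 9 reached it in PS19 only and 12 in WT only, and a genotype difference in these follows in part from how they were chosen. Of the 8 entries called, 3 reached it in each genotype (circ_0015689, circ_0006222 and circ_0014294), 3 in PS19 only (circ_0012261, circ_0010583 and circ_0010479) and 2 in WT only (circ_0001574 and circ_0016064). The last 5 are given below by their levels and fitted differences only, as a description. The counts above are no support for a difference in the set. circ_0015689 and circ_0006222 reached the limit in WT only narrowly, with WT means of 187 and 185 normalized counts, so the same caution holds for them.

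circ_0015689 and circ_0006222 had the largest fitted log2 fold changes of the 100 entries in limma and were nearly 1 pattern, with at most 9 reads between them in a library. circ_0015689 had 112 to 6139 normalized counts in PS19 with a median of 437, and 6.34 to 449 in WT with a median of 194. PS19 replicates 1, 2, 3 and 4 were above every WT library, the other 4 PS19 libraries lay within the WT range, and WT replicate 1 was the lowest of all. The log2 fold change was 2.41 ± 0.84 (SE) for circ_0015689 (limma raw p = 0.00791, exact permutation p = 0.0362) and 2.64 ± 0.93 for circ_0006222 (limma raw p = 0.00827, exact permutation p = 0.0353). In WT replicate 1 they had 5 reads and 1 read. Their best tRNA or miRNA match was tRNA-Ile-AAT-5-1 at an r of 0.962 for circ_0015689, with a rho of 0.588.

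circ_0012261 had 76.6 to 2307 normalized counts in PS19 with a median of 262, and 4.63 to 633 in WT with a median of 71.5. All 8 PS19 libraries were above the WT median, but PS19 replicate 3 alone was above every WT library. Its mean was 492 normalized counts in PS19 and 137 in WT. The fitted log2 fold change was 2.25 ± 0.78 (SE), and the entry followed mir-5108, the row of the miRNA precursor, at an r of 0.963 and a rho of 0.906. With reads scaled to library totals the log2 fold change was 1.94, and with edgeR it was 1.38.

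circ_0010583 and circ_0010479 were in the set through PS19 libraries, with most of their level in 1 library each. circ_0010583 had 2063 normalized counts in PS19 replicate 1, 537 in PS19 replicate 4 and 17.5 to 57.2 in the other 6 PS19 libraries, against 1.27 to 40.6 in WT. Its log2 fold change was 1.98 ± 0.82 (SE), and it was 3.47 with edgeR, 1.30 without PS19 replicate 1 and 0.71 without PS19 replicates 1 and 4, an exclusion chosen after seeing the data. circ_0010479 had 3203 normalized counts in PS19 replicate 2, 3.83 to 39.8 in the other PS19 libraries and 2.03 to 24.1 in WT. Its log2 fold change was 2.0 ± 0.91 (SE), and without PS19 replicate 2 it was 1.01. It depended strongly on the model, at 0.91 with DESeq2 and 5.58 with edgeR.

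Of the 3 entries called lower in PS19, circ_0001574 had 16.2 to 453 normalized counts in PS19 with a median of 55.5, and 54.7 to 869 in WT with a median of 234. Of the PS19 libraries, 1 was above the WT median. Its log2 fold change was -1.54 ± 0.63 (SE). circ_0014294, which moved with it at an r of 0.974, had 48.0 to 683 in PS19 with a median of 102.9 and 77.3 to 1253 in WT with a median of 323, a log2 fold change of -1.25 ± 0.60 (SE, limma raw p = 0.0475, exact permutation p = 0.0782). Among rows of other classes with a mean of 10 or more, circ_0014294 was nearest to Snord12 at 0.971 and circ_0001574 to DQ267102 at 0.966, both from the snRNA and snoRNA rows.

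circ_0016064 had 44.4 to 192 normalized counts in PS19 with a median of 71.1, and 17.7 to 1905 in WT with a median of 228. 5 WT libraries were above every PS19 library and no PS19 library was above the WT median, while WT replicate 2 was the lowest of all. Its log2 fold change was -1.39 ± 0.63 (SE). Over the 16 fits that left out 1 library it ran from -1.88 (without WT replicate 2) to -0.93 (without WT replicate 8), and it was -2.26 with DESeq2 and -2.53 with edgeR.

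Of the 3 entries that reached the limit in each genotype, circ_0015689 and circ_0006222 kept their call whichever of the 16 libraries was left out, but circ_0006222 was not called with array weights, where its log2 fold change was 2.14. circ_0014294 was called in 5 of the 16, those without PS19 replicate 4 or 5 or WT replicate 2, 4 or 6. The replicate block left its log2 fold change at -1.25 but gave a limma raw p of 0.0630, so that the call was lost. It was also lost in the fit to ncRNAs with a mean of at least 10, at the same log2 fold change, with DESeq2, at -1.14, and with size factors from miRNAs alone, at -0.88.

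**Figure D5:**
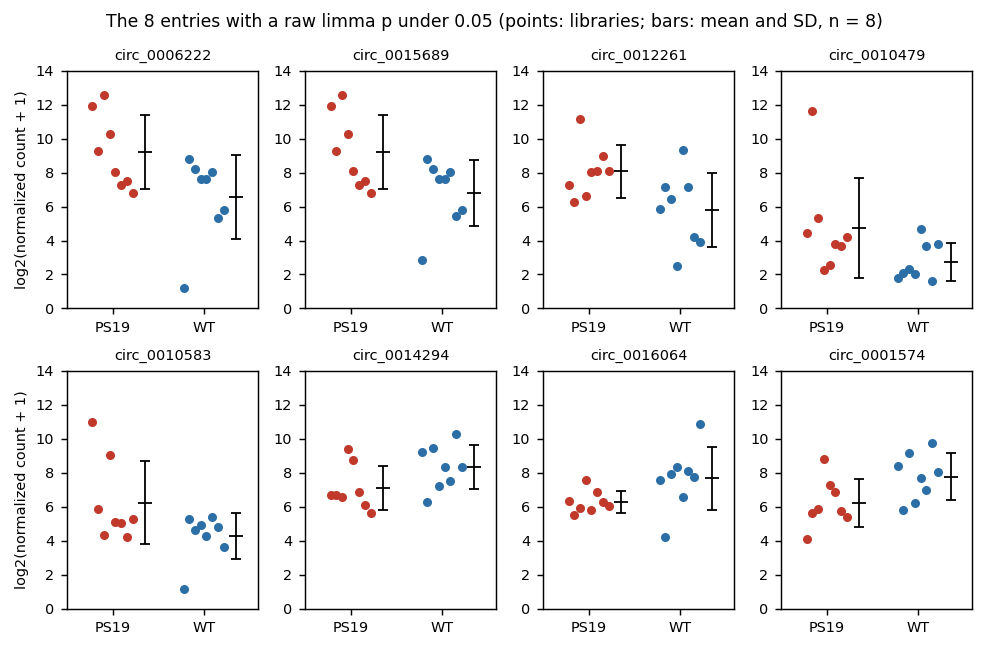
log2(normalized count + 1) of the 8 entries with a raw limma p under 0.05, with 1 point a library for PS19 (red) and WT (blue) and the mean and SD of each group (black, n = 8). The genotypes overlap in each panel, and circ_0010479 has 1 PS19 library far above the other 7.

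Within the 10 libraries whose names start with G, 1 of the 100 entries was called, beside 4.62% of all ncRNAs. The entry was circ_0012261, which reached the limit in PS19 only, so that nothing is read from this count. The log2 fold changes of the 3 entries lower in PS19 were 0.21 ± 0.99 (SE) for circ_0001574, 0.33 ± 0.96 for circ_0014294 and 0.00407 ± 0.96 for circ_0016064, each closer to 0 than its error. Those of circ_0015689 and circ_0006222 were 1.01 and 1.0 there, with limma raw p of 0.412 and 0.413. For circ_0012261 and circ_0010479 the log2 fold changes were larger there than with all libraries, at 3.24 and 2.68. For circ_0010583 the value was smaller, at 1.14. The remaining 6 libraries are all WT and allow no comparison of genotypes among themselves.

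The 3 circRNAs that the study's text discusses by name were not among the 100. Ranked by mean level over all 12658 circRNA entries, those with a twin and identical copies included, circ_0002153 was in place 486 with 41.7 normalized counts, circ_0007688 in place 764 with 25.6 and circ_0008242 in place 1064 with 18.2. Of the IDs left out by name, circ_0016157 and circ_0016160 averaged 164 normalized counts each, circ_0012885 76.9, circ_0008624 37.4, circ_0008625 37.3, circ_0002523 17.8 and circ_0005066 10.2, so that none would have been among the 100.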

How the data were processed

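Small RNA libraries of pEVs from 8 PS19 and 8 WT mice were used, 1 per mouse, grouped by the sample titles. The authors aligned reads to mm10 with STAR 2.5.3a within COMPSRA, whose feature counts they normalized with DESeq2 1.42.1. The deposited signal values are these counts divided by a size factor per library, and 100% of them were whole reads within 1e-06 of a read after division by the smallest value of the library. Whether circRNA counts required a junction read is not given in the sources used here. The deposited log2 fold changes, their errors, Wald scores and p-values of the authors' comparison were not used.

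The members and lists were chosen with earlier results of these data known. Levels were described as normalized counts with SD. PS19 was compared to WT with limma 3.58.1 (trended eBayes) on log2(normalized count + 1) over all 15159 ncRNAs with at least 1 read, with Benjamini-Hochberg adjustment over all of them, on R 4.3.3, and single entries with an exact two-sided permutation test. Recovered reads were tested with DESeq2 1.42.0 and edgeR 4.0.16 as alternatives. The fits were tested on simulated data. Errors are the spread between mice. Reads without molecular identifiers are not independent molecules, so the floor of 3 reads covers counting error only. The text names the 10 entries of highest mean, the 3 of lowest and of highest CV, up to 5 called entries in each direction, the 3 nearest under and farthest from the twin limit, the first of the 3 largest families, the entries at the limit of 100, those left out by name and the 3 named by the study, with further entries named after their values were seen. The position and sequence of Snord85 are not reported here.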

Additional observations from a re-analysis of the deposited data

Results flagged for a closer look

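Of 70 groups of 8 libraries tested for 1 outlying library with Dixon's ratio on log2(normalized count + 1) (the named entries and the summed level, in each genotype), 9 were beyond its 95% critical value. Chance flags about 1 in 20 groups, but this rate does not hold here, since 3 of the entries (circ_0002885, circ_0008821 and circ_0004305) were named for the highest CV and others for their difference between genotypes, and entries of 1 family are not independent of each other.

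A single library was far above the others of its genotype in 5 cases. The ratio was 0.866 for circ_0002885 in PS19, where replicate 1 had 203251 normalized counts, 0.736 for circ_0011248 in WT (replicate 4, 3199), 0.672 for circ_0010479 in PS19 (replicate 2, 3203), 0.569 for circ_0008821 in WT (replicate 8, 8343) and 0.531 for circ_0004305 in PS19 (replicate 2, 7466).

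A single library was far below in 4 cases. The ratio was 0.593 for circ_0003655 and 0.600 for circ_0003656 in PS19, where replicate 4 had 211 and 199 normalized counts. In WT it was 0.545 for circ_0006222 and 0.583 for circ_0010583, both at 1.27 normalized counts, which is 1 read, in replicate 1. In the fit without WT replicate 1, circ_0006222 had a limma log2 fold change of 1.87 and stayed called, and circ_0010583 had 1.54.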

How the results depend on the processing

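The count of called entries was 8 (5 higher, 3 lower in PS19), beside 4.85% of all ncRNAs. It was 10 with DESeq2 (beside 5.42%) and 19 with edgeR (9 and 10, beside 15.1%). With reads scaled to library totals it was 5 (2 and 3, beside 2.9% of all ncRNAs). It was 6 with miRNA-only size factors (6 and 0, beside 4.95%). Within the libraries whose names start with G it was 1 (1 and 0, beside 4.62%). Leaving out 1 library gave 5 to 8 entries, with 3 to 6 higher and 1 to 4 lower. It was 5 without PS19 replicate 1 or 3 or WT replicate 1, 3 or 7. A mean of at least 10, a pseudocount of 0.1, 1 ncRNA per identical set, array weights and the exclusion of WT replicate 2, the library under 50% of the median total, left 7 or 8. Without PS19 replicates 1 and 4 together, chosen after seeing the data, it was 9. The share over all ncRNAs is not given for the fits without 1 library or for those named after them. Nothing is read from their counts. The median log2 fold change of the 100 entries, -0.11, lay between -0.40 (G libraries) and 0.32 (without PS19 replicates 1 and 4) over these settings, on both sides of 0. The log2 ratio of the mean summed level, PS19 over WT, was 0.55, and it was -0.17 with library totals, 1.32 with miRNA-only factors and 0.13 without circ_0002885, also chosen after seeing the data. The cause of these differences was not tested.

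Within the G libraries the 3 entries lower in PS19 had log2 fold changes near 0, at 0.21 ± 0.99 (SE, circ_0001574), 0.33 ± 0.96 (circ_0014294) and 0.00407 ± 0.96 (circ_0016064). Membership kept 90 of the 100 entries with a twin limit of 0.95 or with snRNA and snoRNA genes as possible twins. It kept 91 with r of log2 values, where 18 circRNA entries had a twin, against 492 by the rule used. It kept 99 with twins of mean 1, 83 ranked by the median and 87 scaled to library totals. The last 2 rankings were led by circ_0004465. Replicate numbers do not mark pairs: same-numbered libraries deviated together at r of -0.18 to 0.47. Of 8 PS19 libraries, 1 had the WT library of the same number as its best WT partner. With the replicate block 8 entries were called, a count from which nothing is read without its share over all ncRNAs. In that fit circ_0014294 had a limma raw p of 0.0630. Reads allow a floor of 3 per library, 1.17 to 11.5 normalized counts, and 13 of the 100 entries fell to it or below in some library.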
